A study of Mus musculus with 58 samples.

Results

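Male mice that received 5 closed head injuries, each followed by the p38 inhibitor SB239063, were compared with male mice that received 5 sham procedures, each followed by saline vehicle. The 2 groups hold 13 of the 58 libraries of the series, 8 injured SB239063 and 5 sham vehicle libraries, and were selected by the sex, injury and treatment given in the sample titles. Both were made from somatosensory cortex of C57BL/6J mice, which entered the experiment at 2 to 4 months of age. One procedure was given per day, and SB239063 (20 mg/kg) or saline was injected into the peritoneum 30 min after each. Tissue was taken at the chronic time, which covers about 18 and 34 days, and the day of each library is not known. The libraries also carry a cohort label, M1 to M4. Each cohort holds 2 injured SB239063 libraries, while the sham vehicle libraries number 1 in M1, 1 in M2, 2 in M3 and 1 in M4. The labels do not say what a cohort was (a litter, a surgery day or a sequencing run). Both injury and inhibitor differ between the groups, so the 13 libraries alone cannot tell the 2 factors apart. Values of the 8 male injured vehicle libraries are therefore given beside the comparison, and those of 11 female injured SB239063 and 9 female sham vehicle libraries serve for the test of a sex difference.

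The p38 kinases are stress-activated members of the MAP kinase family that respond to cytokines, oxidative stress and tissue damage. They act through downstream kinases such as Mapkapk2 and through transcription factors, and in microglia and astrocytes they take part in the production of inflammatory mediators. In neurons, MAP kinase and calcium signalling act on CREB and serum response factor, which switch on the immediate early genes within minutes of synaptic activity. The transcripts of these genes are short-lived.

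Total counts of the 13 libraries ran from 30626349 to 47074849 and did not separate the groups (exact permutation test within cohorts over 162 arrangements, two-sided, p = 0.648, adjusted over 6 library measures 0.66; the smallest p the design allows is 0.00617). Excitatory neuron transcripts were high in all 13 libraries. Slc17a7, a vesicular glutamate transporter of excitatory neurons, lay between 1218 and 1930 CPM (counts scaled to a common library size). All 24 listed excitatory neuron genes were measured, which is the same for every library because of the count limit given below. These values do not test whether the tissue was cortex alone. Of the markers of neighbouring tissue, 1 of 15 choroid plexus, 4 of 17 meningeal fibroblast, 2 of 9 red blood cell and 1 of 23 peripheral leukocyte genes were measured. For neighbouring brain regions the numbers were 17 of 27 striatum, 12 of 21 hippocampus and 10 of 18 thalamus genes. A marker high in 1 library alone can be missing, so these numbers do not show how clean each dissection was. The table lists only genes with at least 101 counts in every library, so low genes were not analysed here. Libraries that stood apart were injured SB239063 replicate 1 (striatal genes high), injured SB239063 replicate 6 (Enpp2 at 2358 CPM against 208 to 351 in the other 12), and injured SB239063 replicate 8 and sham vehicle replicate 2 (myelin genes low). Sham vehicle replicates 2 and 4 and injured SB239063 replicate 6 were low in long transcripts. None of the first 4 principal components separated the groups (exact within-cohort permutation p = 0.235 to 0.66). The first held 26.7% of the variance. Of its spread, 26.6% went with the cohort label and 9.13% with the group beyond the cohort. These shares are not adjusted for the number of cohorts, and an unrelated label of 4 levels over 13 libraries would also take up a share. The shares alone therefore do not show an effect of the cohort or of the group.

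No gene differed between the injured SB239063 and the sham vehicle libraries at an adjusted p under 0.05 among the 9636 genes tested (edgeR quasi-likelihood test with Benjamini-Hochberg adjustment). The smallest adjusted p was 0.0924, for Cdkn1a, which was lower in the injured SB239063 group. DESeq2 called this 1 gene (adjusted p = 0.0117) and limma voom called none. At an unadjusted p under 0.05, edgeR gave 560 genes (5.81%), 275 higher (2.85%) and 285 lower (2.96%). DESeq2 gave 611 and limma voom 1194. The differences were small: the 95% interval of 97.6% of genes lay within a 1.5-fold change in either direction, and the median log2 fold change was 0.00. The median SE was 0.092.

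The groups overlapped for nearly every gene. All 8 injured SB239063 libraries lay above all 5 sham vehicle libraries for 1 gene (0.0104%) and below them for 2 (0.0208%), named here after their values were seen. Fam13a lay at 25.4 to 33.5 CPM in the injured SB239063 group against 21.3 to 24.7 CPM in the sham vehicle group (log2 fold change 0.28 ± 0.10, SE). Rit1, a Ras-family GTPase, lay at 23.4 to 26.2 against 26.4 to 30.5 CPM (-0.18 ± 0.06). Rnd3, a small GTPase that acts on the actin cytoskeleton, lay at 13.3 to 17.0 against 17.9 to 22.0 CPM (-0.33 ± 0.13). The adjusted p of these 3 genes was 0.77. Within cohorts, 558 genes (5.79%) were higher and 404 (4.19%) lower in all 4.

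Cdkn1a encodes p21, an inhibitor of cyclin-dependent kinases that is induced by p53, by glucocorticoids and by neuronal activity. Its level in the injured SB239063 libraries, replicates 1 to 8, was 16.1, 16.4, 14.1, 16.0, 27.2, 19.8, 14.4 and 18.8 CPM. In the sham vehicle libraries, replicates 1 to 5, it was 32.7, 32.0, 27.2, 19.7 and 23.1 CPM. In 6 of the 8 injured SB239063 libraries it lay below every sham vehicle library. Replicates 5 and 6, both of cohort M4, reached into the sham range, and both were below the 1 sham vehicle library of their own cohort. The log2 fold change was -0.61 ± 0.12 (SE; 95% interval -0.86 to -0.36; unadjusted p = 9.59e-06), and the differences within M1 to M4 were -0.39, -0.75, -0.72 and -0.49. With injured SB239063 replicate 5 left out, the library of highest Cdkn1a in its group, the gene passed the edgeR test at -0.68 (adjusted p = 0.0128). It passed with no other single library left out, and was at -0.53 without sham vehicle replicate 2. With cohort M3 left out, its edgeR adjusted p was 0.9995. Injured vehicle males had 16.0 to 23.9 CPM, a difference from sham vehicle of -0.50 ± 0.12 on the log2 scale, and the step from injured vehicle to injured SB239063 was -0.11 ± 0.11.

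**Figure D1:**
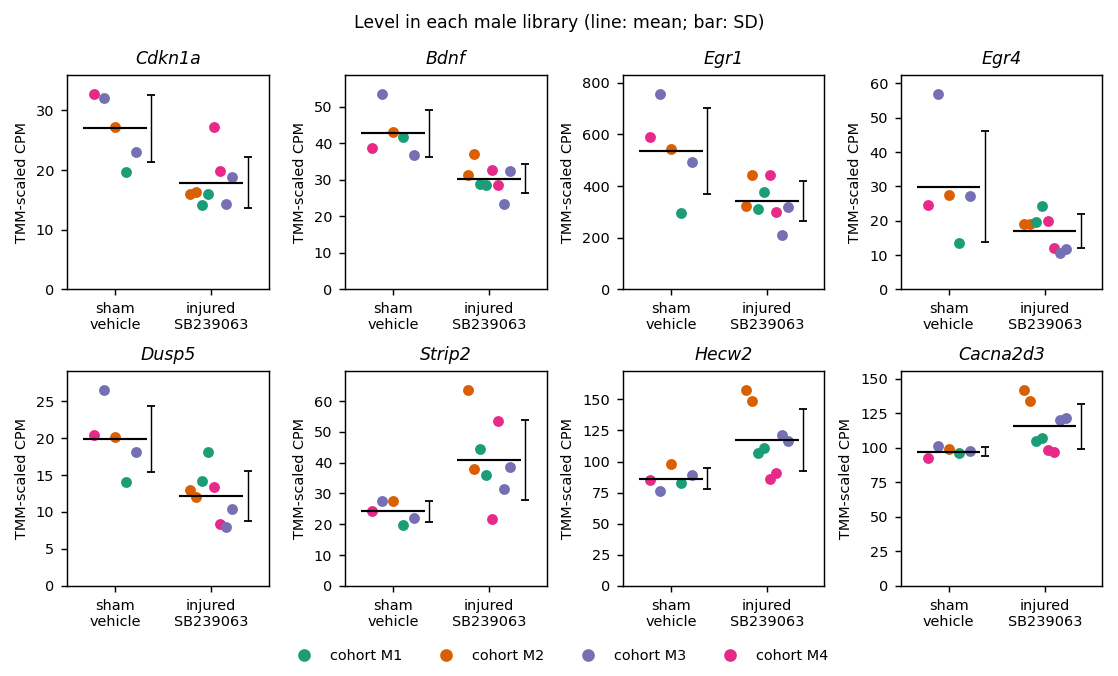
Level of 8 genes in each male library, in TMM-scaled CPM (y axis, from 0), for the 5 sham vehicle and 8 injured SB239063 libraries. Points are libraries coloured by cohort, the line is the group mean and the bar its SD. The upper row and Dusp5 are lower and the other 3 genes higher on average in the injured SB239063 group, and in each panel the groups overlap.

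Among the 12 genes of smallest p in the lower direction, several are switched on by neuronal activity. Apart from Cdkn1a, each had an adjusted p of 0.77 and did not pass the test. Bdnf, a secreted neurotrophin, lay between 23.3 and 37.0 CPM (median 30.0) in the injured SB239063 group, and at 38.7, 53.5, 43.2, 41.7 and 36.8 CPM in the sham vehicle libraries. Only replicate 2 of the injured SB239063 group reached into the sham range, and the log2 fold change was -0.52 ± 0.14, with a lower value in all 4 cohorts (-0.34 to -0.69). Egr1, a zinc finger transcription factor, lay between 211 and 444 CPM against 589, 756, 544, 296 and 492.8 CPM (-0.63 ± 0.18). The low sham library of Egr1 was replicate 4, and only 1 injured SB239063 library lay below it. Egr3 gave -0.40 ± 0.12 and Egr4 -0.92 ± 0.28. Egr4 lay between 10.5 and 24.3 CPM in the injured SB239063 group and at 24.5, 56.9, 27.5, 13.6 and 27.2 CPM in the sham vehicle group. All injured SB239063 values of Egr4 were therefore below 4 of the 5 sham libraries, and all but 3 were above the fifth.

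Gadd45b, a stress-inducible activator of MAP kinase kinase kinases, gave -0.59 ± 0.17. Dusp5, a nuclear phosphatase of ERK, lay between 7.91 and 18.2 CPM against 20.4, 26.4, 20.2, 14.1 and 18.2 CPM (-0.72 ± 0.22), and Spry2, a feedback inhibitor of receptor tyrosine kinase signalling, gave -0.23 ± 0.07. The small GTPase Arl4d gave -0.55 ± 0.17 and the chaperone Dnajb5 -0.37 ± 0.11. The paxillin-binding adaptor Tgfb1i1 gave -0.34 ± 0.11 and the RNA-binding gene Rbmxl1 -0.24 ± 0.07. Dusp5 and Gadd45b were lower in 3 of the 4 cohorts and Arl4d in all 4, by -0.09 in M1, less than 0.01 in M2, -1.21 in M3 and -0.58 in M4. With cohort M3 left out, Arl4d was at -0.22, Egr4 at -0.20, Egr1 at -0.34, Egr3 at -0.15 and Dusp5 at -0.46. Without sham vehicle replicate 2, which had the highest level, Egr4 was at -0.53. With the replicate number in place of the cohort, Egr4 was at -0.42 and Arl4d at -0.26.

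The 12 genes of smallest p in the higher direction come from unrelated families. Strip2, a gene of the striatin-interacting complex, had the largest difference, 0.71 ± 0.22, with levels of 63.4, 38.1, 44.4, 36.0, 21.8, 53.4, 31.4 and 38.5 CPM in injured SB239063 replicates 1 to 8 against 24.2, 27.6, 27.6, 19.7 and 22.1 CPM in sham vehicle replicates 1 to 5. In 7 of the 8 libraries it was above every sham library, and replicate 5 lay within the sham range. Hecw2, a ubiquitin ligase, lay between 85.8 and 157 CPM against 76.0 to 98.3 CPM (0.43 ± 0.13). Cacna2d3, an auxiliary subunit of voltage-gated calcium channels, lay between 97.2 and 142 CPM against 92.9 to 101 CPM (0.26 ± 0.08). Sham vehicle values of Cacna2d3 were tightly grouped, and 6 injured SB239063 libraries lay above all of them. Wdr19, a component of intraflagellar transport in cilia, gave 0.33 ± 0.09, and Stn1, part of a telomere maintenance complex, 0.38 ± 0.10. Zranb3, a helicase of replication fork repair, gave 0.39 ± 0.11, the phosphodiesterase Pde8b 0.22 ± 0.07 and the focal adhesion protein Parva 0.34 ± 0.10. Hspa12a (0.27 ± 0.08), Amer1 (0.31 ± 0.10), L3mbtl3 (0.26 ± 0.08) and Adgrf5 (0.33 ± 0.11) completed the 12. Wdr19 was at 0.16 and Adgrf5 at 0.15 without the 3 libraries low in long transcripts.

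All 19 measured immediate early genes, of 30 listed, were lower in the injured SB239063 group, with a median log2 fold change of -0.40 against 0.00 over all genes. None passed the test, and 11 of the 19 had an unadjusted p under 0.05, where 2.96% of all genes did so in the lower direction. The list was chosen with earlier results of these data known, so its count describes these libraries. The lowest fold changes belonged to Arc, a cytoskeletal protein of dendritic spines (-0.98 ± 0.46), Fos, a subunit of the AP-1 transcription factor (-0.92 ± 0.40), Egr4, Junb, another AP-1 subunit (-0.78 ± 0.38), and Nr4a1, an orphan nuclear receptor (-0.75 ± 0.31). Arc, Fos, Junb and Nr4a1 are named here as the members of lowest fold change, after their values were seen. At the other end, Jun was at -0.06 ± 0.12 and Homer1 at -0.16 ± 0.14.

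**Figure D2:**
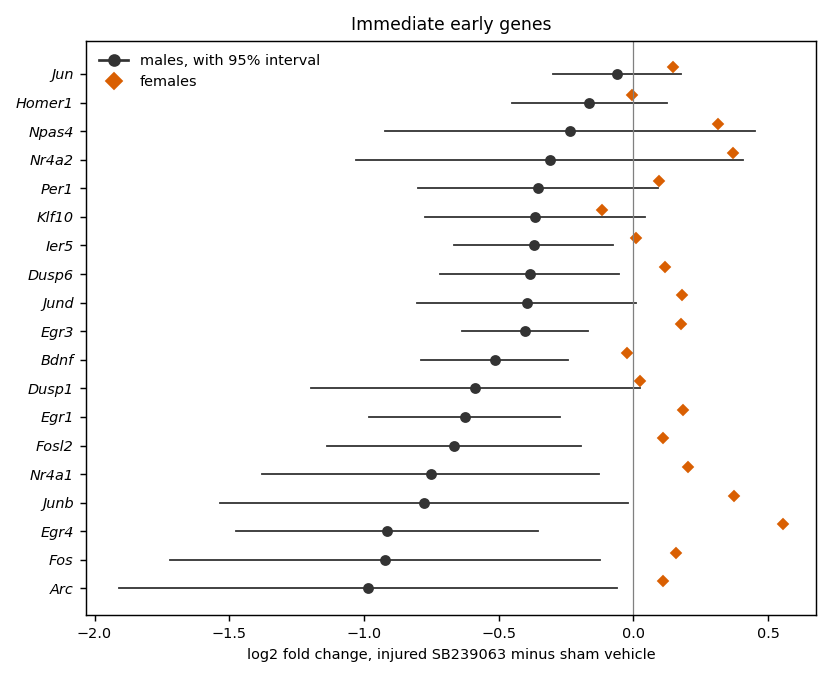
Log2 fold change of injured SB239063 against sham vehicle (x axis) for the 19 measured immediate early genes (y axis). Dark points are males with their 95% interval, and orange diamonds are the same difference in females, shown without an interval. All 19 male points lie below 0, from -0.98 (Arc) to -0.06 (Jun), while 16 female points lie above 0.

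Arc and Fos had a similar pattern across libraries, and the difference of the list depended on the cohort. Arc lay at 288, 257, 202, 270, 250, 49.1, 39.8 and 113 CPM in injured SB239063 replicates 1 to 8 and at 395, 555, 528, 62.2 and 319 CPM in sham vehicle replicates 1 to 5. Fos lay at 25.9, 40.9, 28.9, 39.7, 46.4, 9.59, 6.08 and 18.8 CPM against 71.6, 77.7, 63.9, 15.7 and 41.5 CPM. In both genes injured SB239063 replicates 6 and 7 were lowest, and sham vehicle replicate 4 was far below the other sham libraries. Sham vehicle replicate 4 is the only sham vehicle library of cohort M1, and in that cohort the difference was opposite: Arc was higher in the injured SB239063 libraries by 1.91 and Fos by 1.1 on the log2 scale. As a mean log2 CPM over its members, the list differed between the groups by 0.58 in M1, -0.48 in M2, -1.20 in M3 and -0.74 in M4. The median fold change was -0.15 with M3 left out, -0.66 with M1 left out and -0.20 with the replicate number as a block in place of the cohort. In bulk tissue, fewer cells of a type and less RNA per cell cannot be told apart.

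Promoters of these genes often hold binding sites of CREB, the cAMP-response element (CRE, TGACGTCA) and its half-site (TGACG on either strand, counted also where it lies inside a full element), and of serum response factor, the CArG box. Each was searched on both strands in the 250 bases before the transcription starts that the RefSeq table (build GRCm38.p6) gives. Windows were found for 7764 of the 9636 genes tested and for 15 of the 19 immediate early genes. Arc, Egr1 and Egr3 had no window. The half-site was present for 10 of the 15 (66.7%) and for 32.4% of all genes with a window, the full CRE for 1 of the 15 (6.67%, all genes 3.28%), and the CArG box for none of the 15 (all genes 1.37%). The windows of 3 genes among the 12 of smallest p in the lower direction are shown. They were chosen because they carry the half-site alone, the CArG box and the full CRE respectively. Egr4 is in the immediate early list, while Dusp5 and Arl4d are not and lie outside the 15. Capitals mark the matches. The Egr4 window lies at chr6:85513590-85513839 (minus strand) and holds 2 half-sites. The Dusp5 window lies at chr19:53528895-53529144 (plus strand) and holds 2 adjoining CArG boxes followed by 1 half-site. The Arl4d window lies at chr11:101665291-101665540 (plus strand) and holds 1 CRE, which makes up 2 of its 3 half-sites. A match describes the letters of the window and does not show that a factor is bound there.
Egr4: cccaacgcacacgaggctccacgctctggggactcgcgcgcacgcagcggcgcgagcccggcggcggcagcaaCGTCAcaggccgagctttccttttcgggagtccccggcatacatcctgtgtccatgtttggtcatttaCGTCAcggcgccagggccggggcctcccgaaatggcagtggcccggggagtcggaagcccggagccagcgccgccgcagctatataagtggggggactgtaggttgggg
Dusp5: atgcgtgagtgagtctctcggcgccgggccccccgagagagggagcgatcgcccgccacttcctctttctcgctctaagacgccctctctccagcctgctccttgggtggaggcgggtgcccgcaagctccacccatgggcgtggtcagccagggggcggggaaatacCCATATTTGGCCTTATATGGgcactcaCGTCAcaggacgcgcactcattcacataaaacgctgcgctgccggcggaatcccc
Arl4d: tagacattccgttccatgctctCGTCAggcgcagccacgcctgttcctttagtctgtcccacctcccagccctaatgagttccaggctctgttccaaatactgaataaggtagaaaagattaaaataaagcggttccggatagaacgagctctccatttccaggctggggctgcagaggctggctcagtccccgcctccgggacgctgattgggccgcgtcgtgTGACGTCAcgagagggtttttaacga

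Activity-induced effector genes, the later products of neuronal activity, were lower for 14 of 19 measured members of 24 listed, with a median of -0.16. Of these, 8 had an unadjusted p under 0.05, all lower, where 2.96% of all genes were, led by Cdkn1a, Bdnf and Gadd45b. This median was -0.08 by limma voom. Glucocorticoid response genes were lower for 19 of 21 measured members of 24 listed, with a median of -0.26. Of them, 8 had an unadjusted p under 0.05 in the lower direction and 1 in the higher (all genes 2.96% and 2.85%), and none passed. Cdkn1a, Arl4d and Nfkbia led the list. Nfkbia, the inhibitor that holds NF-kB in the cytoplasm, lay between 12.0 and 21.0 CPM in the injured SB239063 group and at 18.9, 22.9, 19.7, 28.7 and 17.3 CPM in the sham vehicle group (-0.32 ± 0.13). Sgk1, a kinase induced by corticosteroids, lay between 45.5 and 110 CPM against 70.1 to 122 CPM (-0.36 ± 0.24), so its groups overlapped widely. The mean log2 CPM of the glucocorticoid list was 5.22 to 5.64 (median 5.32) in the injured SB239063 libraries and 5.53 to 5.64 in the sham vehicle libraries. The value lay below every sham library in 7 of the 8, injured SB239063 replicate 5 was the exception, and the difference was negative in all 4 cohorts (-0.15, -0.24, -0.35 and -0.16). The list median was -0.14 without the 3 libraries low in long transcripts. Bdnf stands in both the immediate early and the effector list. Dusp1 and Per1 stand in both this list and the immediate early list, and Cdkn1a in both this list and the effector list.

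**Figure D3:**
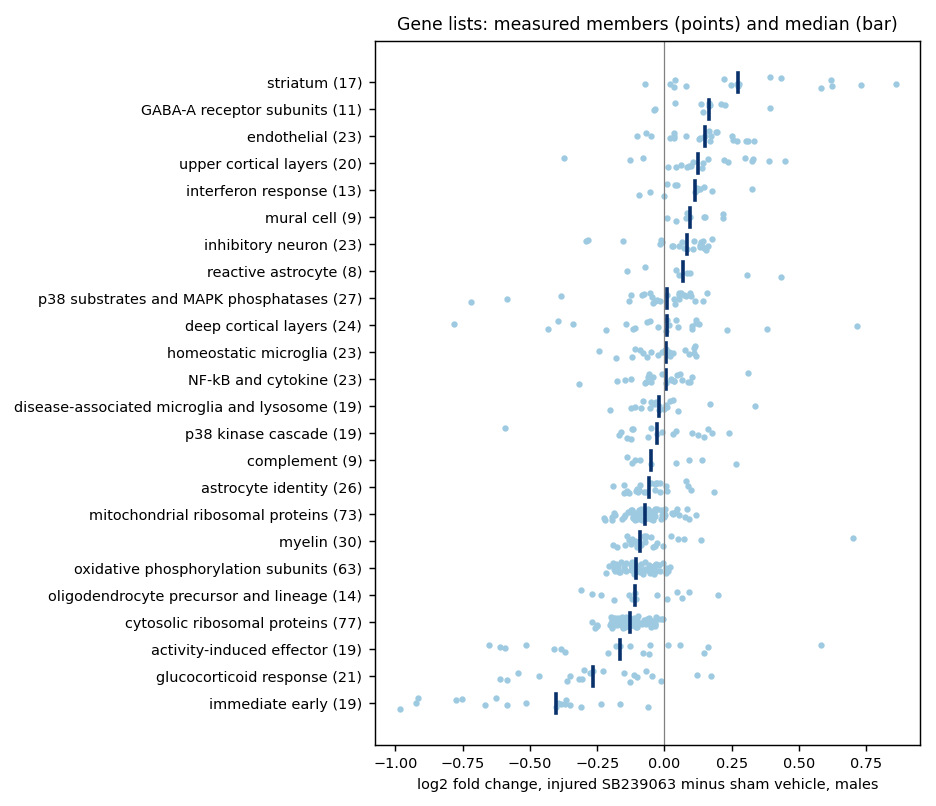
Log2 fold change of injured SB239063 against sham vehicle in males (x axis) for the measured members of 24 gene lists (y axis, number measured in parentheses). Pale points are genes and dark bars are list medians, which run from -0.40 (immediate early) to 0.27 (striatum). Most medians lie within 0.15 of 0.

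Genes of the p38 cascade lay on both sides of 0, from -0.59 (Gadd45b) to 0.24 (Rps6ka5). Mapk14, which encodes p38 alpha, a target of the inhibitor, lay between 101 and 120 CPM in the injured SB239063 group and at 108 to 122 CPM in the sham vehicle group, with a log2 fold change of -0.03 ± 0.05 (95% interval -0.14 to 0.08). Mapk11, which encodes p38 beta, gave -0.12 ± 0.13. Mapkapk2, the kinase that p38 activates directly, lay between 26.3 and 32.0 CPM against 30.8 to 37.6 CPM (-0.17 ± 0.09), and was lower in all 4 cohorts. Rps6ka5, a nuclear kinase downstream of p38 and ERK, was at 0.24 ± 0.12. Of 19 measured p38 cascade genes 8 were higher and 11 lower (median -0.03), with Gadd45b the member of smallest p. Of 27 p38 substrates and MAP kinase phosphatases 14 were higher and 13 lower (median 0.01). In that list the members of smallest p were the phosphatases Dusp5, Dusp6 (-0.38 ± 0.17) and Dusp1 (-0.59 ± 0.30), of which Dusp6 and Dusp1 are also immediate early genes. RNA levels do not measure kinase activity, which these data do not hold.

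For the measured genes of inflammation and of microglia, list medians lay between -0.11 and 0.11. The lowest was that of antigen presentation genes, with 5 measured of 19 listed, 2 higher and 3 lower. Genes under 101 counts in any library are absent, so inflammatory genes of low level were not seen. NF-kB and cytokine genes had a median of 0.00 over 23 measured of 47 listed, 12 higher and 11 lower. After Nfkbia, the members of smallest p were the chemokine Cx3cl1 (-0.12 ± 0.08) and the kinase Map3k7 (0.10 ± 0.07). Cx3cl1 was at -0.038 and Map3k7 at 0.038 without sham vehicle replicate 2, and at -0.23 and 0.066 without replicate 4. Homeostatic microglia genes had a median of 0.01 over 23 genes, 13 higher and 10 lower. The members of smallest p were lower, with Cst3, a secreted protease inhibitor, at -0.24 ± 0.09, the surface protein Tmem119 at -0.18 ± 0.10 and the complement subunit C1qb at -0.12 ± 0.10. Tmem119 was at -0.11 and C1qb at -0.054 without sham vehicle replicate 2. Disease-associated microglia and lysosome genes had a median of -0.02 over 19 genes, 7 higher and 12 lower. The growth factor Grn was at -0.12 ± 0.06, the lysosomal membrane protein Lamp2 at 0.17 ± 0.10 and the lipid carrier Apoe at -0.20 ± 0.13. Complement genes had a median of -0.05 over 9 measured of 21 listed. Interferon response genes were higher for 10 of 13 measured of 34 listed (median 0.11). Rnf213 led them at 0.33 ± 0.14, followed by the receptor Ifnar1 (0.12 ± 0.05) and Stat2 (0.18 ± 0.11). Ifnar1 and Stat2 were at 0.055 and 0.079 without sham vehicle replicate 4. Rnf213 lay between 14.5 and 37.2 CPM (median 20.6) against 10.1 to 22.4 CPM, its highest value came from injured SB239063 replicate 5, and its fold change was 0.18 without that library and also without sham vehicle replicate 4. The interferon median was 0.04 with cohort M1 or M4 left out and 0.05 by limma voom or without sham vehicle replicate 3.

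Gfap, the filament protein that marks reactive astrocytes, lay between 95.1 and 211 CPM (median 156) in the injured SB239063 group and at 146, 105, 184, 175 and 104 CPM in the sham vehicle group. The groups overlapped over almost their whole range, and the log2 fold change was 0.09 ± 0.15. Reactive astrocyte genes were higher for 6 of 8 measured of 27 listed (median 0.07), with ceruloplasmin (Cp), a copper-carrying ferroxidase, at 0.43 ± 0.16, Tm4sf1 at 0.31 ± 0.17 and Stat3 at 0.09 ± 0.07. Astrocyte identity genes were lower for 20 of 26 (median -0.06), led by the membrane protein Mlc1 (-0.15 ± 0.06), the folate enzyme Aldh1l1 (-0.19 ± 0.08) and Ndrg2 (-0.14 ± 0.06). The reactive median was 0.012 without sham vehicle replicate 5, 0.046 without replicate 4 and 0.11 without replicate 2, and Stat3 was at 0.019 without sham vehicle replicate 4 and 0.13 without replicate 3. The identity median was -0.10 without sham vehicle replicate 5 and -0.025 without replicate 4.

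Vascular genes were more often higher in the injured SB239063 group, without passing the test. Of 23 measured endothelial genes 20 were higher (median 0.15, 5 with an unadjusted p under 0.05, all higher, where 2.85% of all genes were), and all 9 measured mural cell genes were higher (median 0.09). Adgrf5, an adhesion receptor of endothelium, lay between 39.6 and 57.2 CPM against 52.9, 28.0, 42.7, 31.8 and 41.4 CPM (0.33 ± 0.11). Its highest sham library, replicate 1, lay within the range of the injured SB239063 group. The organic anion transporter Slco1c1 was at 0.30 ± 0.13 and the efflux pump Abcb1a at 0.27 ± 0.12. Slco1c1 reached 102 CPM in injured SB239063 replicate 6, against 46.1 to 56.1 CPM in the other 7, and its fold change was 0.16 without that library. The same library had the high level of Enpp2, the 1 measured gene of the choroid plexus list, and its part in the value of Slco1c1 was not tested. Of the mural cell genes, Rgs5, a regulator of G protein signalling in pericytes, was at 0.22 ± 0.08, the growth factor receptor Pdgfrb at 0.22 ± 0.10 and Cald1 at 0.15 ± 0.11. The mural median was 0.18 without sham vehicle replicate 3, 0.14 without sham vehicle replicate 1 and 0.15 without injured SB239063 replicate 5. Abcb1a was at 0.13 without sham vehicle replicate 2, and Pdgfrb at 0.14 without replicate 4. Cald1 was at 0.066 without sham vehicle replicate 5, and at 0.096 and 0.091 without injured SB239063 replicates 6 and 7. The endothelial list differed by 0.28 in M1, 0.12 in M2, 0.21 in M3 and -0.08 in M4, and its median was 0.08 without the 3 libraries low in long transcripts.

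Upper cortical layer genes were higher for 17 of 20 measured (median 0.12, 4 with an unadjusted p under 0.05 in the higher direction and 1 in the lower, against 2.85% and 2.96% of all genes). Cux1, a transcription factor of upper-layer neurons, lay between 123.4 and 203 CPM against 119, 158, 139, 99.7 and 118 CPM (0.33 ± 0.12). Brinp3 was at 0.30 ± 0.14 and the transcription factor Pou3f1 at -0.37 ± 0.17. Left out in turn, injured SB239063 replicate 2 gave an upper layer median of 0.06 and sham vehicle replicate 2 one of 0.19. Deep cortical layer genes had a median of 0.01, 13 of 24 higher, although the members of smallest p were lower: Fezf2, the factor that specifies subcortical projection neurons (-0.43 ± 0.17), Crym, a thyroid hormone-binding protein (-0.40 ± 0.16), and Ldb2 (-0.34 ± 0.13). The deep layer median was -0.078 without sham vehicle replicate 2. Inhibitory neuron genes had a median of 0.08, 17 of 23 higher, with the peptides Sst at -0.29 ± 0.12 and Cck at -0.29 ± 0.18 and the RNA-editing gene Adarb2 at 0.18 ± 0.11. The inhibitory median was 0.051 and Cck was at -0.056 without sham vehicle replicate 2. Cck was at -0.43 and Adarb2 at 0.27 without sham vehicle replicate 3, and Adarb2 was at 0.11 without replicate 4. GABA-A receptor subunits had a median of 0.16, 9 of 11 higher, and no member reached an unadjusted p under 0.05. The subunit Gabra4 lay between 110 and 172 CPM against 109 to 127 CPM (0.23 ± 0.12), with 5 of the 8 injured SB239063 libraries above every sham library. Gabrb2 was at 0.39 ± 0.23.

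Striatal genes, which in a cortical dissection report on the share of neighbouring striatum, were higher for 16 of 17 measured of 27 listed (median 0.27, 6 with an unadjusted p under 0.05, all higher, where 2.85% of all genes were). Scn4b, a sodium channel subunit, reached 423 CPM in injured SB239063 replicate 1, against 72.8 to 180 CPM in the other 7 and 71.1 to 149 CPM in the sham vehicle group (0.62 ± 0.22, and 0.39 without that library), and Rasd2 reached 208 CPM (0.43 ± 0.19, and 0.25 without it). The mean log2 CPM of the list was 7.77 in this library, 6.24 to 6.95 in the other 7 and 6.19 to 6.41 in the sham vehicle libraries. Without replicate 1 the list median was 0.10, and within cohorts the list differed by 0.51 in M1, 0.79 in M2, -0.03 in M3 and 0.07 in M4. The part of these markers in the other results was not tested.

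**Figure D4:**
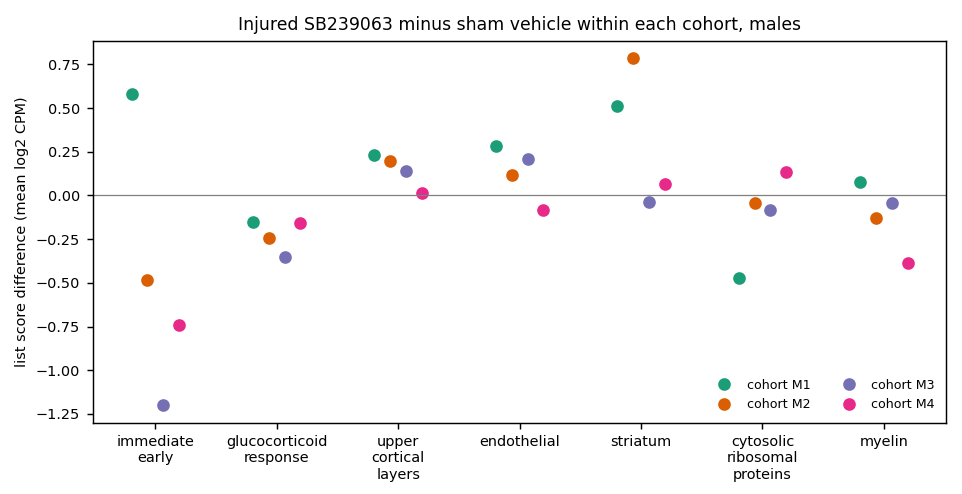
Difference in mean log2 CPM between injured SB239063 and sham vehicle libraries (y axis) for 7 gene lists (x axis), within each of the 4 male cohorts (colours). The glucocorticoid list lies below 0 in all 4 cohorts and the upper layer list above 0 in all 4, while the immediate early list runs from 0.58 (M1) to -1.20 (M3).

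Cytosolic ribosomal protein genes were lower for all 77 members (median -0.13, 4 with an unadjusted p under 0.05, where 2.96% of all genes were lower at that p), oxidative phosphorylation subunits for 59 of 63 (median -0.11) and mitochondrial ribosomal protein genes for 61 of 73 (median -0.07). Rps14, a protein of the small ribosomal subunit, lay between 199.6 and 361 CPM against 290.0, 382, 249, 387 and 243 CPM (-0.25 ± 0.11). Sham vehicle replicates 2 and 4 were highest, and the other 3 sham libraries lay inside the range of the injured SB239063 group. Rps2, another protein of the small subunit, had the same 2 sham libraries on top (-0.26 ± 0.12). Ribosomal protein genes have many near-identical processed copies in the genome, and the handling of reads shared between copies is not stated. These transcripts are short, and fold change followed transcript length over all genes: the Spearman correlation across 9549 genes was 0.507, with medians from -0.10 in the shortest length bin to 0.10 in the longest. Genes are not independent replicates, so no p is given. Set against genes of the same length bin, the medians were -0.04 for cytosolic ribosomal proteins, -0.02 for oxidative phosphorylation subunits and -0.01 for mitochondrial ribosomal proteins. The length correlation of a library's own deviations was -0.56 in sham vehicle replicate 4, -0.50 in sham vehicle replicate 2 and -0.43 in injured SB239063 replicate 6, and -0.17 to 0.41 in the other 10. It did not separate the groups (exact within-cohort permutation p = 0.315, adjusted 0.528). The median of the cytosolic ribosomal proteins was 0.03 without these 3 libraries, -0.04 without sham vehicle replicate 4 alone and -0.07 without sham vehicle replicate 2 alone. Without sham vehicle replicate 4 the oxidative phosphorylation median was -0.028, the mitochondrial ribosomal median -0.021 and Rps14 at -0.12. Without sham vehicle replicate 2 the same medians were -0.044 and -0.034, and Rps2 was at -0.11.

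**Figure D5:**
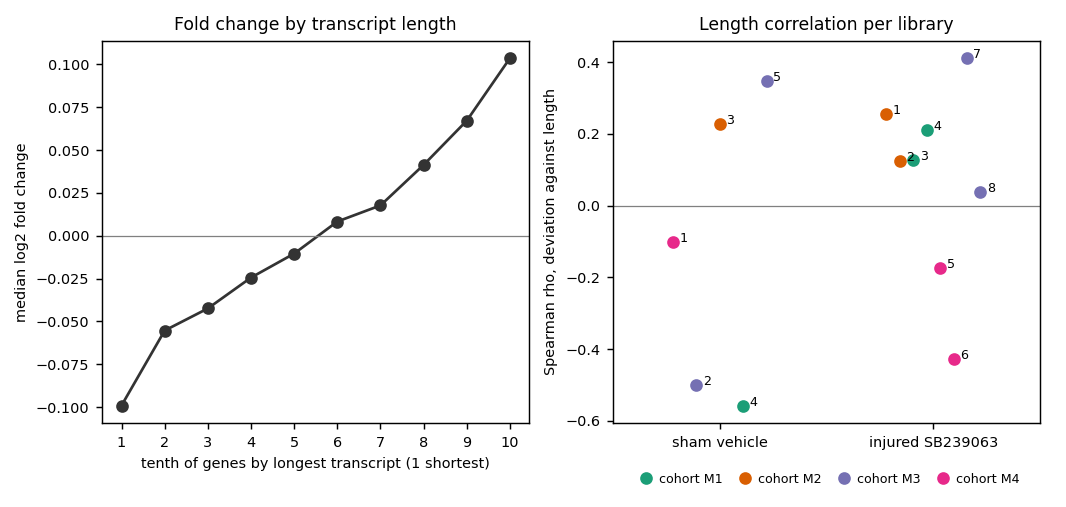
Left, median log2 fold change of injured SB239063 against sham vehicle (y axis) by bin of longest transcript length, each of equal gene number (x axis), rising from -0.10 to 0.10. Right, Spearman correlation of each library's deviation from the mean with transcript length (y axis), by group, coloured by cohort and numbered by replicate. Sham vehicle 2 and 4 and injured SB239063 6 are lowest.

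Myelin genes ended close to the sham level, with a wide spread. Mbp, the basic protein of compact myelin, lay between 939 and 3606 CPM in the injured SB239063 group and at 3932, 1387, 2948, 2639 and 2981 CPM in the sham vehicle group. Mobp, a second structural protein of myelin, lay between 339 and 1522 CPM against 2008, 445, 965, 962 and 1000.3 CPM. In both genes the lowest value of each group came from injured SB239063 replicate 8 and sham vehicle replicate 2, both of cohort M3. The log2 fold changes were -0.12 ± 0.23 for Mbp and -0.10 ± 0.24 for Mobp. Of 30 measured myelin genes 25 were lower and 5 higher (median -0.09), and none had an unadjusted p under 0.05. The median was 0.04 without injured SB239063 replicate 8, 0.01 without sham vehicle replicate 1 and -0.23 without sham vehicle replicate 2, so its sign depended on single libraries. Oligodendrocyte precursor and lineage genes had a median of -0.11, with 9 of 14 lower, led by the receptor Gpr17 (-0.27 ± 0.13) and the transcription factor Sox8 (-0.31 ± 0.16). That median was -0.0058 without injured SB239063 replicate 8, -0.042 without sham vehicle replicate 1, -0.067 without sham vehicle replicate 5 and -0.064 without injured SB239063 replicate 5.

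The comparison is the sum of 2 steps, from sham vehicle to injured vehicle and from injured vehicle to injured SB239063, which share libraries with it and with each other, so their values are only set side by side. Neither step had a gene past the test by edgeR, DESeq2 or limma voom. At an unadjusted p under 0.05 edgeR gave 342 genes (3.55%) in the injury step, 137 higher (1.42%) and 205 lower (2.13%). It gave 181 (1.88%) in the inhibitor step, 79 higher (0.82%) and 102 lower (1.06%). For myelin genes the 2 steps had opposite signs, with medians of 0.24 and -0.35 and Mbp at 0.25 ± 0.23 and -0.38 ± 0.20. For immediate early genes both were negative, with medians of -0.30 and -0.21. Glucocorticoid response genes gave -0.21 in the injury step and -0.01 in the inhibitor step, and cytosolic ribosomal proteins -0.11 and -0.01. Endothelial genes gave 0.03 and 0.12, upper layer genes 0.04 and 0.10 and striatal genes 0.05 and 0.22.

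The same comparison in females was tested against the male one, with no library in common. No gene differed between the sexes at an adjusted p under 0.05 by edgeR (smallest adjusted p 0.20), 3 did by DESeq2 and 430 by limma voom, so the call rests on the test. At an unadjusted p under 0.05 edgeR gave 852 genes (8.84%), 399 with a higher (4.14%) and 453 with a lower value in males (4.7%). In females themselves 7 genes passed by edgeR, 6 higher (0.0623%) and 1 lower (0.0104%), and 1710 (17.7%) had an unadjusted p under 0.05, 817 higher (8.48%) and 893 lower (9.27%). The 5 genes of smallest p that were lower in males than in females were Etv6, Tmem198, Cdkn1a, Egr4 and Celf6. Cdkn1a was at -0.61 in males and 0.09 ± 0.10 in females, a difference of -0.70 ± 0.16 (95% interval -1.02 to -0.38; edgeR adjusted p = 0.20, DESeq2 0.0496). Female Cdkn1a levels ran from 15.7 to 44.6 CPM (median 27.4) in the injured SB239063 group and from 17.5 to 35.3 CPM (median 24.2) in the sham vehicle group, and overlapped widely. Egr4 was at -0.92 in males and 0.56 ± 0.22 in females, a difference of -1.47 ± 0.35. Etv6, an ETS-family repressor, gave -0.31 ± 0.11 in males and 0.31 ± 0.08 in females. Its male levels were 20.6 to 37.7 CPM against 32.4 to 36.7 CPM, and its female levels 30.6 to 45.2 CPM against 22.7 to 36.7 CPM. Tmem198 and Celf6 differed by -0.55 ± 0.12 and -0.54 ± 0.13.

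In the other direction stood Nell1, Dcdc2a, Sephs1, Kcnab3 and Cacna2d3. Kcnab3, an auxiliary subunit of voltage-gated potassium channels, was at 0.36 ± 0.13 in males and -0.28 ± 0.10 in females, a difference of 0.64 ± 0.17. Its male levels were 104 to 152 CPM against 83.5, 101, 96.9, 94.4 and 109 CPM, with 6 of the 8 injured SB239063 libraries above every sham library. Cacna2d3 was at 0.26 in males and -0.12 ± 0.06 in females, a difference of 0.38 ± 0.10. Sephs1, a selenophosphate synthetase family gene, differed by 0.32 ± 0.08, with 7 of the 8 male injured SB239063 libraries (24.6 to 29.8 CPM) above every male sham vehicle library (22.9 to 24.9 CPM). Nell1 differed by 0.60 ± 0.15 and Dcdc2a by 0.66 ± 0.17. Immediate early genes, all lower in males, were higher for 16 of 19 in females (median 0.15), and the median of their male minus female differences was -0.58, against 0.01 over all genes. The median female difference was -0.41 for myelin genes, and -0.12 for cytosolic ribosomal proteins, close to the male -0.13.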

How the data were processed

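RNA of mouse somatosensory cortex was sequenced as poly(A)-selected libraries from a directional kit, per the labels' protocols. The authors deposited raw counts per gene, whole numbers with no normalization. STAR, featureCounts and DESeq2 are named with the builds GRCm39 and mm39 in the submitters' processing notes. The sources used here give neither their versions nor the annotation, strand setting or rule that removed low genes, so genes that overlap or have near-identical copies may share counts.

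The 58 libraries were fitted together over 9636 genes with edgeR 4.0.16 (TMM scaling, robust quasi-likelihood, R 4.3.3), with 8 groups and the cohort as a term within each sex (14 coefficients, 44 residual degrees of freedom, Benjamini-Hochberg threshold 0.05). DESeq2 1.42.0 and limma 3.58.1 (voom with quality weights) were alternatives. CPM values are TMM-scaled, and log2 CPM uses a prior count of 2. Errors are SE for fold changes and SD in the plot of levels. A list score is the mean log2 CPM of the list's measured members. Other alternatives changed the scaling, the filter, the libraries in the fit and the cohort term. Lengths are of the longest transcript of each symbol, and 87 genes had none.

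The comparison, the gene lists and the rule for named genes were chosen with earlier results of these data known. The rule took up to 12 genes per direction in order of p, the first 3 members of each list by p, 5 genes per direction for the sex difference, and Mapk14, Mapk11, Mapkapk2, Gfap, Nfkbia, Sgk1, Mbp and Mobp. From the 53 lists, those that bear on injury, p38, activity and the cell types of cortex are described, and a few genes that the rule names are not reported here. The fit was tested on simulated data for the male comparison. Of 50 genes with a log2 change of 0.25 it called 11 (22%), and of 50 at 0.5 it called 46 (92%). At changes of 1 and 2 it called 49 and 50 of 50, and there were 13 false calls. Changes of about 0.25 could therefore be missed.

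The smallest count was 101 and the lowest mean count of a gene 270. The spread between libraries was 0.123 as a biological coefficient of variation. Counting error comes on top of this spread and has its largest part in genes of low count. Within the male injured SB239063 group and within the male sham vehicle group, no pair of libraries agreed within sampling noise. Other pairs were not checked. The labels do not say that each library is a separate animal, so p-values measure the spread between these samples. Replicate numbers 1 to 5 occur in both groups, but only number 4 lies in the same cohort in both, and they were not used as pairs.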

Additional observations from a re-analysis of the deposited data

Results flagged for a closer look

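In 15 of 202 groups of values (7.43%), 1 library lay far from the others of its group, where the chance rate of the criterion is about 1 in 20. The number given is the gap to the nearest library divided by the range of the group, on the log2 CPM scale.

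Injured SB239063 replicate 6 stood apart most often. It was highest for the transporter Slco1c1 (0.750), for the score of disease-associated microglia and lysosome genes (0.709) and for that of oxidative phosphorylation subunits (0.543), and lowest for the p38 cascade score (0.653). Injured SB239063 replicate 1 was highest for Rasd2 (0.537) and the striatum score (0.536). Injured SB239063 replicate 5 was highest for Rnf213 (0.571) and lowest for Tm4sf1 (0.629). The lowest value of Crym (0.542) was in injured SB239063 replicate 2, and that of Mobp (0.531) in injured SB239063 replicate 8.

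Among the 5 sham vehicle libraries, replicate 4 was lowest for Egr3 (0.848), at 151 CPM against 238 to 258 in the other 4. Replicate 2 was lowest for the deep layer score (0.817) and highest for Spry2 (0.752). Replicate 5 was lowest for Mlc1 (0.779) and replicate 1 for L3mbtl3 (0.758).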

How the results depend on the processing

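No gene passed the edgeR test in males under RLE or upper quartile scaling, either filter or the replicate block, while DESeq2 called 1 and leaving out 1 library gave 0 to 1. DESeq2 called 3 genes for the sex difference and 106 in females, and limma voom 430 and 23. Leaving out 1 library gave 0 to 2 calls for the sex difference. At an unadjusted p under 0.05 the male count ran from 176 without the 3 libraries low in long transcripts to 1194 by limma voom, and from 299 to 980 with 1 library left out. Replicate numbers did not pair the samples (correlations of -0.27, 0.24, 0.30, -0.31 and 0.03). With the replicate block 261 genes had an unadjusted p under 0.05, and Mbp was at 0.037 and Mobp at 0.018.

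Small differences changed sign. With 1 library left out, Mbp ran from -0.26 (sham vehicle replicate 2) to 0.026 (injured SB239063 replicate 8) and Mobp from -0.27 (sham vehicle replicate 2) to 0.072 (sham vehicle replicate 1), with 0.046 for injured SB239063 replicate 8. Gfap ran from -0.074 (injured SB239063 replicate 7) to 0.19 (sham vehicle replicate 3). Without cohort M4, Mobp was at 0.087. Without M3, Gfap was at -0.13, Cx3cl1 at 0.077 and Cck at 0.19. Without the 3 libraries low in long transcripts, a set chosen after seeing the data as were the left-out cohorts, Map3k7 was at -0.021, the NF-kB median at -0.076 and the cytosolic ribosomal protein median at 0.027.

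Counts of genes whose groups do not overlap, 1 above and 2 below, grow by construction when libraries are removed. They can also grow when the cohort is removed with the group kept in the fit, which narrows the spread within groups. They were 2 above with RLE scaling, 47 and 23 with the cohort removed from the values, 56 and 38 without the 3 libraries, 27 and 27 without M1, 7 and 8 without M2, 39 and 48 without M3, and 125 and 107 without M4. Leaving out 1 library gave 1 to 19 above and 2 to 18 below. Every listed gene had at least 101 counts per library, and the part of sequencing depth in these numbers was not tested.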

Other observations

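Several other gene groups of cortex were described in the same 13 libraries, and none of their genes passed the edgeR test in males. Voltage-gated sodium, calcium and HCN channel genes were higher in the injured SB239063 group for 23 of 31 (median 0.08, 5 with an unadjusted p under 0.05, all higher, where 2.85% of all genes were). Scn1a, the sodium channel of fast-spiking interneurons, lay between 219 and 380 CPM (0.34 ± 0.12), and 4 of the 8 libraries were above every sham library. Potassium channel genes were higher for 35 of 47 (median 0.08). At an unadjusted p under 0.05, 8 were higher and 3 lower, against 2.85% and 2.96% of all genes. Kcnh7 was at 0.40 ± 0.14, and Kcnf1 and Kcnmb4 were both at -0.27. Channel transcripts are long, and set against genes of the same length bin the medians were 0.03 for sodium, calcium and HCN channels and 0.02 for potassium channels.

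Antioxidant genes were lower for 27 of 34 (median -0.06, and -0.011 against genes of the same length bin). The metallothioneins Mt1 and Mt2, metal-binding proteins that astrocytes induce under stress, were at -0.26 ± 0.12 and -0.30 ± 0.13 and lower in all 4 cohorts. Mt2 lay between 38.8 and 55.2 CPM in the injured SB239063 group against 66.7, 45.8, 50.4, 51.5 and 46.7 CPM, with 7 of the 8 libraries below every sham library. Axonal cytoskeleton genes were higher for 10 of 30 and lower for 20 (median -0.02). An unadjusted p under 0.05 was reached by 3, all lower, where 2.96% of all genes were. Of these 3, Gap43, a protein of growth cones, lay between 145 and 183 CPM against 178, 235, 166, 207 and 165 CPM (-0.26 ± 0.09). Tubb2b was at -0.20 ± 0.07 and Mapt, which encodes tau, at -0.10 ± 0.05, and all 3 were lower in all 4 cohorts.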
